A study of Mus musculus with 6 samples.

Results

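The mRNA of PGAM5 and of 8 genes tied to it was examined in macrophages in which PGAM5 had been knocked down. The 9 genes are the target itself (Pgam5), its sequence relative Pgam2, the protease Parl, and the partners, substrates or linked kinase Phb2, Fundc1, Map3k5, Axin1, Bcl2l1 and Csnk2a1. They were taken by gene symbol, under a rule that uses no measured value, and make up 9 of the 54532 genes in the tables. The libraries came from an immortalized line of mouse bone marrow-derived macrophages (iBMDMs). Control iBMDMs carried a control shRNA and PGAM5 KD iBMDMs an shRNA against PGAM5, with 3 libraries in each group. Both groups received LPS at 100 ng/ml for 4 hours, so all 6 libraries are from stimulated cells and resting cells are not analysed here. The labels give neither the number of shRNAs or clones nor whether replicates were separate cultures, so a p-value measures only the spread between these libraries, which may be technical.

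PGAM5 is a mitochondrial protein of the phosphoglycerate mutase family that acts as a serine/threonine phosphatase rather than as a glycolytic enzyme. A membrane anchor holds it in mitochondria, and the rhomboid protease PARL cuts it there when the inner membrane loses its potential. Known substrates and partners include the fission GTPase DRP1, the mitophagy receptor FUNDC1, the stress kinase ASK1, the Wnt scaffold AXIN1 and the survival protein BCL-xL. RNA-seq reads the mRNA of these genes, and neither their protein nor their phosphorylation was measured in these libraries. In bulk libraries fewer cells with an mRNA and less of it per cell cannot be told apart.

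The libraries held between 18163463 and 24388917 counted fragments, as recovered from the deposited values. Of 9 macrophage markers, 8 were above 1 FPKM (fragments per kilobase of exon and per 1000000 counted fragments) on average and Mertk was listed at 0. The summed macrophage markers ranged from 2980 to 3060 FPKM over the control libraries, against 2690 to 2720 FPKM over the PGAM5 KD libraries, and the part of this difference in the results was not tested. None of 7 neutrophil, 6 fibroblast, 7 lymphocyte or 5 skeletal muscle markers reached 1 FPKM on average, and no such sum exceeded 1.5 FPKM in a library. The total FPKM of a library was at most 304889 among the controls and at least 317936 among the PGAM5 KD libraries. Scaling to TPM, which gives every library the same total, removes that difference. It also makes the values larger, so the 1 added before taking the logarithm weighs less on low genes. A value on scaling to TPM thus differs from the main fit in both respects.

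To check the target, Pgam5 was examined first. It is annotated on the minus strand at chr5:110259130-110269913 (GRCm38). Control replicates 1 to 3 held 17.1, 13.0 and 13.4 FPKM of it, and PGAM5 KD replicates 1 to 3 held 4.33, 5.75 and 4.53 FPKM. Every PGAM5 KD library lay below every control library. The mean fell from 14.5 ± 2.27 to 4.87 ± 0.77 FPKM (SD, n = 3 each), which leaves 33.6% of the control level. The single PGAM5 KD libraries kept 29.9%, 39.7% and 31.2% of the control mean. On the log2(FPKM + 1) scale, which understates changes of low genes, the fold change was -1.40 (SE 0.13, 95% interval -1.70 to -1.10, limma adjusted p = 0.000358). An exact two-sided permutation test gave p = 0.1, the smallest that 3 libraries against 3 allow. The level rests on 226 to 737 fragments a library. Where no other scale is named, rises and falls of genes are differences in log2(FPKM + 1), PGAM5 KD minus control.

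By size of fall Pgam5 ranked 29 among the 10540 genes with a mean of at least 1 FPKM that were tested, and 5 among the 9338 protein-coding genes of these. The target was therefore not the gene with the deepest fall. Of its exon bases 58.1% (1378 bases) are also covered by the opposite-strand lincRNA Gm26718, which lies wholly inside Pgam5's exons and is listed at 0 in all 6 libraries. The labels describe both a directional and a non-directional kit, and which was used is not given. Whether the 0 of Gm26718 reads its level is therefore not known. Counting without strand could leave fragments on the shared bases unassigned, so the level of Pgam5 itself, its place among the 9 genes and its ratio to Parl could be understated in both groups. A second antisense gene, Gm15788, shares no exon base with Pgam5 and held 2 to 25 fragments. The shRNA acts on the mRNA, and its target sequence is not analysed here.

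**Figure D1:**
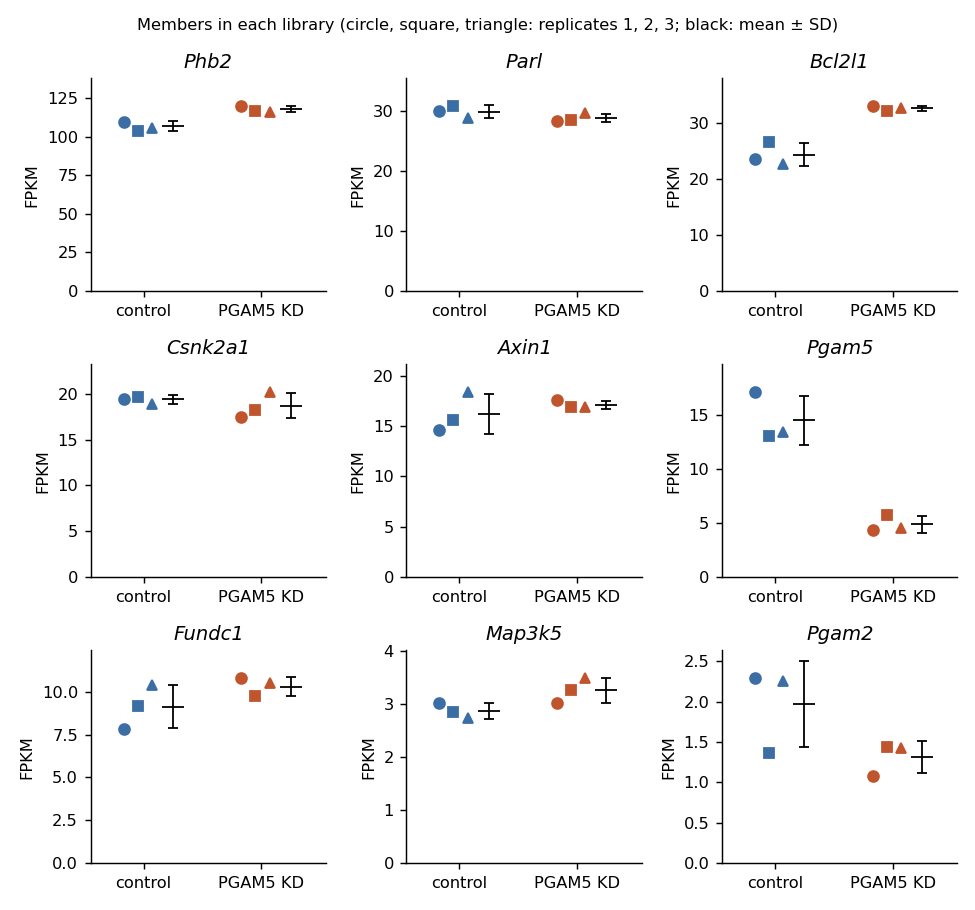
FPKM of each of the 9 genes (y axis, starting at 0) in control and PGAM5 KD libraries; symbols are replicates 1 to 3 and the black bar is the mean ± SD. Pgam5, Bcl2l1 and Phb2 have groups that do not overlap, and in the other 6 genes the groups overlap.

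Pgam5 shares with its glycolytic relatives the catalytic arginine-histidine pair of the histidine phosphatase fold. The stretches below are coding sequence of the annotated transcripts (GENCODE M21, GRCm38), 5′ to 3′. The codons of that arginine and histidine, which all 3 genes have, are in capitals. The pair sits at codons 103 and 104 of 288 in Pgam5, and at codons 10 and 11 of 253 in Pgam2 and of 254 in Pgam1.
Pgam5: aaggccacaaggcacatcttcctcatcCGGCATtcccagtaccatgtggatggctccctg
Pgam2: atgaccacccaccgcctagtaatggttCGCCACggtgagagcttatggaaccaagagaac
Pgam1: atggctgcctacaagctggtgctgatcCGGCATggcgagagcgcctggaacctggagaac
Translated, Pgam2 and Pgam1 were identical at 79.1% of 253 aligned residues, whereas Pgam5 could be aligned with Pgam1 over only 61 residues (32.8% identical) and with Pgam2 over 40 residues (10 identical). No gene similar in sequence to Pgam2 (at least 85% identity over 200 bases) was found among the annotated transcripts.

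Pgam2, the muscle form of phosphoglycerate mutase, was the lowest of the 9 genes. It lies at chr11:5801640-5803733 on the minus strand. Its level was 2.29, 1.36 and 2.26 FPKM in control and 1.08, 1.44 and 1.42 FPKM in PGAM5 KD libraries, and the groups overlapped. The log2 fold change was -0.35 (95% interval -0.72 to 0.03, limma adjusted p = 0.141). These values rest on 20 to 37 fragments a library. Without control replicate 2, the lowest control library, the fold change was -0.505 and passed (limma adjusted p = 0.0338).

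Pgam1, the form of the glycolytic enzyme used in most tissues, was more abundant by far and rose. It was at 490 ± 9.84 FPKM in control and 672 ± 20.7 FPKM in PGAM5 KD (SD, n = 3 each), and its log2(FPKM + 1) rose by 0.45 (SE 0.03, limma adjusted p = 0.000136). Under quantile normalization the rise of Pgam1 was 0.262 (limma adjusted p = 0.00148). Ubash3b, a phosphatase of the same fold, rose by 0.30 in log2(FPKM + 1) without that normalization (limma adjusted p = 0.00922). Of 9 relatives of this fold on a list apart from Pgam5 and Pgam2, 7 were tested, 2 rose, none fell and 5 did not pass, so that 28.6% were called beside 31.7% of all genes. Among the 5, Pfkfb2, a phosphofructokinase-2 gene named after its values were seen, had -0.44 with non-overlapping groups (limma adjusted p = 0.0546). Pfkfb2 passed without control replicate 2 (-0.537, limma adjusted p = 0.0453), on scaling to TPM (-0.71, 0.0443), with voom (-0.82, 0.00466) and with no mean-variance trend (0.0335). Ubash3a was listed at 0 in all libraries.

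Across the 9 genes, 3 of 9 passed at an adjusted p under 0.05, which is 33.3% beside 31.7% (3346 of 10540) of all genes tested. Of these, 2 were higher, beside 16.8% of all genes called higher, and Pgam5 alone was lower, beside 14.9% called lower. Under the added requirement of an absolute log2 fold change above 1, only Pgam5 remained, beside 1.32% of all genes. Non-overlapping groups were found for 3 of 9 genes, beside 47.1% of all genes. The median log2 fold change of the 9 genes was 0.08 and that of all tested genes 0.013. The share of the 9 genes that passed is thus near the background, and nothing is read from it about the set.

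**Figure D2:**
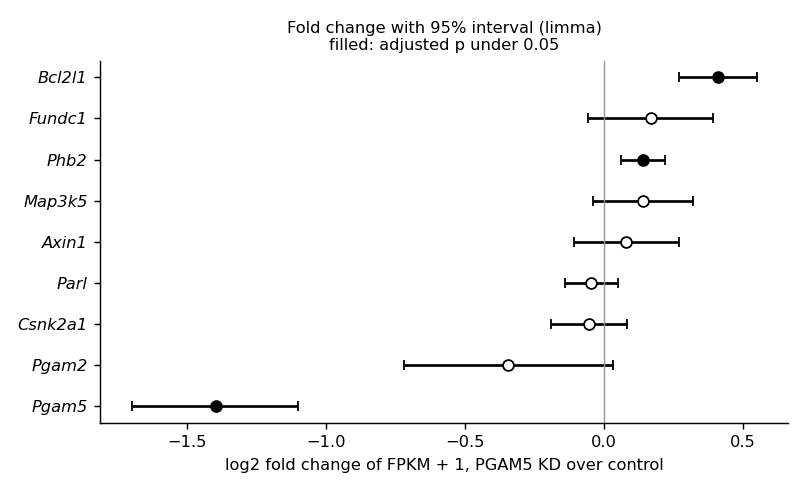
Log2 fold change of FPKM + 1 (x axis, PGAM5 KD over control) with its 95% interval from limma for the 9 genes; filled points have an adjusted p under 0.05. Pgam5 lies at -1.40, and the other 8 genes lie between -0.35 and 0.41.

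Bcl2l1 encodes BCL-xL, an outer-membrane survival protein that binds PGAM5 and restrains its action on FUNDC1. It showed the largest rise among the 9 genes. The gene lies at chr2:152780668-152831728 on the minus strand. Its level was 23.7, 26.7 and 22.8 FPKM in control and 33.1, 32.3 and 32.7 FPKM in PGAM5 KD libraries. The groups did not overlap, and the PGAM5 KD libraries lay close together. The mean rose from 24.4 ± 2.03 to 32.7 ± 0.402 FPKM (SD, n = 3 each), a log2 fold change of 0.41 (SE 0.06, 95% interval 0.27 to 0.55, limma adjusted p = 0.0027). All 15 alternative fits kept the call.

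Other genes of the BCL-xL list moved in both directions. Of 9 tested, 4 rose, 2 fell and 3 did not pass, which is 66.7% called beside 31.7% of all genes (16.8% higher and 14.9% lower), with a median log2 fold change of 0.00. Bcl2l11, which encodes the BH3-only death protein BIM, fell by 0.43 (SE 0.07, limma adjusted p = 0.00439), and Mcl1, a survival protein, fell by 0.18 (limma adjusted p = 0.00663). Bax and Bak1 encode the pore-forming death effectors. Bax rose by 0.23 (limma adjusted p = 0.0418) and Bak1 by 0.19 (limma adjusted p = 0.0205), while the BH3-only gene Bad rose by 0.26 (limma adjusted p = 0.0449). The channel gene Vdac1 rose by 0.15 (limma adjusted p = 0.0134). Mcl1, Bak1 and Vdac1 are named after their values were seen. The Bax call was lost on leaving out control replicate 2 (adjusted p = 0.111) or 3 (0.122), or PGAM5 KD replicate 2 (0.113) or 3 (0.114) in the limma fit. The Bad call was lost in the limma fit without control replicate 1 (adjusted p = 0.104) or 2 (0.125), or PGAM5 KD replicate 1 (0.0594), 2 (0.0737) or 3 (0.126). The Bak1 call was lost in the limma fit without control replicate 2 (adjusted p = 0.0622) or 3 (0.0674), or PGAM5 KD replicate 2 (0.0654) or 3 (0.0607). On scaling to TPM the 4 genes kept positive values but lost their calls, with Bax at 0.158 (limma adjusted p = 0.109), Bad at 0.207 (0.106), Bak1 at 0.116 (0.1) and Vdac1 at 0.071 (0.18). Quantile normalization ended the calls of Bax, Bak1 and Vdac1. Bax and Bad also lost their calls with no mean-variance trend (limma adjusted p = 0.0721 and 0.0549) and with no filter on low values (0.106 and 0.103), and Bad with voom (0.0532). The fall of Mcl1 was -0.311 under quantile normalization.

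Parl, the inner-membrane protease that cleaves PGAM5, showed no call. The gene lies at chr16:20279818-20302387 on the minus strand. Its level was 30.0, 30.8 and 28.8 FPKM in control and 28.4, 28.5 and 29.6 FPKM in PGAM5 KD libraries, and the groups overlapped. The log2 fold change was -0.05 (95% interval -0.14 to 0.05, limma adjusted p = 0.404). On scaling to TPM the Parl value was -0.127 (limma adjusted p = 0.0563). The ratio of Parl to Pgam5 in FPKM was 2.09 ± 0.315 in control and 6.02 ± 0.917 in PGAM5 KD libraries (SD, n = 3 each), with non-overlapping groups (exact permutation p = 0.1). A pseudogene 95% identical to it over 599 bases, Gm13181, held 12 fragments over all libraries.

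PHB2 is an inner-membrane prohibitin that holds PGAM5 and restrains its cleavage by PARL. Phb2 was the most abundant of the 9 genes. It lies at chr6:124712336-124716950 on the plus strand. Its level was 110, 104 and 106 FPKM in control and 120, 117 and 116 FPKM in PGAM5 KD libraries, with no overlap. The mean rose from 107 ± 3.25 to 118 ± 1.94 FPKM (SD, n = 3 each), a log2 fold change of 0.14 (SE 0.03, 95% interval 0.06 to 0.22, limma adjusted p = 0.0199). This call was lost on scaling to TPM (0.061, limma adjusted p = 0.248) and under quantile normalization (0.06, limma adjusted p = 0.189). It was also lost in the limma fit without control replicate 2 (adjusted p = 0.0629), control replicate 3 (0.062) or PGAM5 KD replicate 2 (0.0562), and with no mean-variance trend (0.0598). The antisense gene Gm15884 overlaps 3.79% and the snoRNA Gm23547 4.17% of its exon bases, and both held few or no fragments (at most 14).

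Phb, the partner subunit in the prohibitin ring, rose as well. It was at 79.4 ± 0.912 FPKM in control and 91.2 ± 1.6 FPKM in PGAM5 KD libraries (SD, n = 3 each), a log2 fold change of 0.20 (SE 0.03, limma adjusted p = 0.00317). The call held in all 15 alternative fits, at 0.12 on scaling to TPM and 0.125 under quantile normalization. The ratio of Phb2 to Phb was 1.40, 1.32 and 1.32 in control and 1.32, 1.31 and 1.25 in PGAM5 KD libraries (exact permutation p = 0.2). Of 11 genes on the list of proteases that cut PGAM5, other PARL substrates and inner-membrane partners, 10 were tested, 3 rose, none fell and 7 did not pass, which is 30.0% called beside 31.7% of all genes. Stoml2, an inner-membrane scaffold of a PARL-containing complex, rose by 0.28 (SE 0.03, limma adjusted p = 0.000964). Clpb, a disaggregase of the intermembrane space cleaved by PARL, rose by 0.24 (limma adjusted p = 0.0365). The Clpb call was lost in the limma fit without control replicate 1 (adjusted p = 0.069), control replicate 2 (0.0822) or PGAM5 KD replicate 1 (0.0948), 2 (0.0642) or 3 (0.0886), on scaling to TPM (0.116) and with no filter on low values (0.0787).

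FUNDC1 is an outer-membrane mitophagy receptor that PGAM5 dephosphorylates. Fundc1 lies at chrX:17556564-17572325 on the minus strand. Its level was 7.84, 9.18 and 10.4 FPKM in control and 10.8, 9.73 and 10.5 FPKM in PGAM5 KD libraries. The groups overlapped, and the control libraries were the more spread. The log2 fold change was 0.17 (95% interval -0.06 to 0.39, limma adjusted p = 0.222). It was 0.074 without control replicate 1, 0.256 without control replicate 3 and 0.104 on scaling to TPM.

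Of 9 genes on the list of FUNDC1 kinases, mitophagy receptors and their partners, 8 were tested, 2 rose, 1 fell and 5 did not pass, which is 37.5% called beside 31.7% of all genes. Bnip3, a hypoxia-induced mitophagy receptor, had 19.7, 18.0 and 16.9 FPKM in control and 51.8, 54.4 and 51.2 FPKM in PGAM5 KD libraries. It was the one listed gene beyond the fold threshold, with a log2 fold change of 1.48 (SE 0.06, limma adjusted p = 1.82e-05). Its relative Bnip3l rose by 0.69 (SE 0.05, limma adjusted p = 0.000112). Src, a tyrosine kinase that phosphorylates FUNDC1, was at 4.15 ± 0.722 FPKM in control and 2.2 ± 0.402 FPKM in PGAM5 KD libraries (SD, n = 3 each) and fell by 0.68 (SE 0.13, limma adjusted p = 0.00924).

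CSNK2A1 is a catalytic subunit of casein kinase 2, which phosphorylates FUNDC1 at a site that PGAM5 clears. Csnk2a1 lies at chr2:152226839-152281852 on the plus strand. Its level was 19.5, 19.7 and 18.9 FPKM in control and 17.5, 18.3 and 20.2 FPKM in PGAM5 KD libraries. The groups overlapped, with a log2 fold change of -0.05 (95% interval -0.19 to 0.08, limma adjusted p = 0.516). The Csnk2a1 value was -0.01 without PGAM5 KD replicate 1, -0.108 without PGAM5 KD replicate 3 and -0.133 on scaling to TPM. The gene Gm10031 has 1 exon at chr1:156524012-156526664 on the plus strand and is annotated as protein-coding. It is 99.6% identical to the Csnk2a1 transcript over 2655 bases. The counting could therefore have split shared fragments between the genes or left them unassigned. Over the 1173 coding bases of Csnk2a1 the sequences differ at 1 base, and the longest identical run is 1056 bases. The stretch with that base is shown 5′ to 3′ (coding strand, GENCODE M21, GRCm38) with the differing base in capitals, T29C counted from the first base shown (Csnk2a1 first).
Csnk2a1: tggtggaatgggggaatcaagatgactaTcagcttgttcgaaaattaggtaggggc
Gm10031: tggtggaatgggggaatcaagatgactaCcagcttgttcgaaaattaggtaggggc
A fragment from elsewhere in the coding sequence fits both genes equally well.

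The shares of Csnk2a1 and Gm10031 in the counted fragments were uneven across libraries. Of the fragments on both genes, 84.9%, 84.8% and 85.9% fell on Csnk2a1 in control libraries and 68.0%, 78.4% and 84.4% in PGAM5 KD libraries. Gm10031 held 446, 506 and 430 fragments in control and 1281, 650 and 645 fragments in PGAM5 KD libraries, and PGAM5 KD replicate 1 stood apart. Gm10031 itself had a log2 fold change of 0.62 (limma adjusted p = 0.0913). It was 0.336 without PGAM5 KD replicate 1 (limma adjusted p = 0.097) and passed without PGAM5 KD replicate 3 (0.869, limma adjusted p = 0.0253) and with voom on recovered fragments (0.657, limma adjusted p = 0.0187). Summed over both genes, control libraries held 161 ± 4.73 and PGAM5 KD libraries 172 ± 8.5 fragments per 1000000 counted (SD, n = 3 each, exact permutation p = 0.1). The direction of Csnk2a1 is therefore uncertain. The log2 ratio of summed fragments per 1000000 counted, PGAM5 KD over control, was 0.10. Any shared fragments left unassigned are missing from these sums, so the levels of both genes could be understated.

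**Figure D3:**
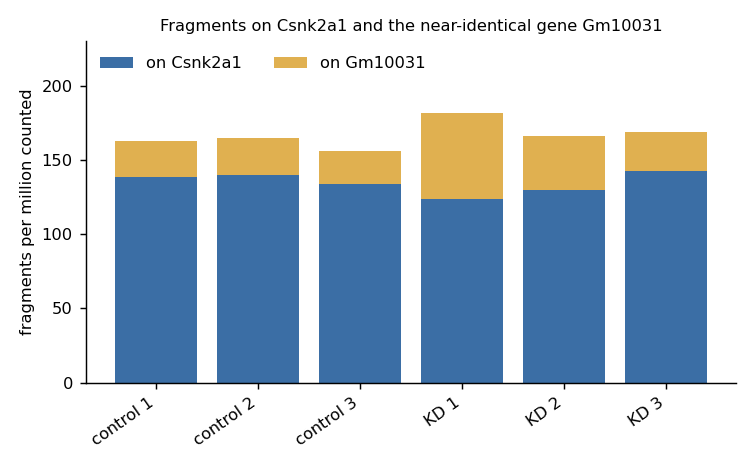
Fragments per 1000000 counted (y axis) on Csnk2a1 and on the near-identical Gm10031, stacked, in each library. The Csnk2a1 share is 84.8% to 85.9% in control and 68.0% to 84.4% in PGAM5 KD libraries, lowest in PGAM5 KD replicate 1.

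Neither of the other casein kinase 2 subunits passed. Csnk2a2, the second catalytic subunit, had a log2 fold change of -0.11 (limma adjusted p = 0.136), which passed on scaling to TPM (-0.197, limma adjusted p = 0.039). Csnk2b, the regulatory subunit, had 0.19 (limma adjusted p = 0.0511) and passed in 3 of the 15 alternative fits. The Csnk2b value was 0.127 without PGAM5 KD replicate 1 (limma adjusted p = 0.0674) and 0.118 on scaling to TPM (0.231). The Csnk2a1 to Csnk2a2 ratio was 1.76 ± 0.0983 in control and 1.85 ± 0.189 in PGAM5 KD libraries (SD, n = 3 each, exact permutation p = 0.4).

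Map3k5 encodes ASK1, the kinase at the head of a stress cascade that leads through MKK3, MKK4, MKK6 and MKK7 to p38 and JNK. The gene lies at chr10:19934472-20142753 on the plus strand. Its level was 3.03, 2.86 and 2.73 FPKM in control and 3.03, 3.27 and 3.49 FPKM in PGAM5 KD libraries, and the lowest PGAM5 KD library was level with the highest control library. The log2 fold change was 0.14 (95% interval -0.04 to 0.32, limma adjusted p = 0.219). Of 11 genes around ASK1, 9 were tested, none rose, 1 fell and 8 did not pass, which is 11.1% called beside 31.7% of all genes. Map2k3, which encodes the p38 kinase MKK3, was at 83.0, 82.2 and 83.0 FPKM in control and 68.6, 69.5 and 68.0 FPKM in PGAM5 KD libraries. It fell by 0.26 (SE 0.03, limma adjusted p = 0.000712) without overlap.

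AXIN1 is the scaffold of the complex that marks beta-catenin for destruction. Axin1 lies at chr17:26138688-26195811 on the plus strand. Its level was 14.6, 15.6 and 18.4 FPKM in control and 17.6, 16.9 and 16.9 FPKM in PGAM5 KD libraries, all inside the control range. The log2 fold change was 0.08 (95% interval -0.11 to 0.27, limma adjusted p = 0.498). It was 0.011 without control replicate 1, 0.168 without control replicate 3 and 0.004 on scaling to TPM. Of 7 genes of this complex, 6 were tested, none rose, 2 fell and 4 did not pass, which is 33.3% called beside 31.7% of all genes. Ctnnb1, beta-catenin itself, was at 156, 155 and 163 FPKM in control and 109, 107 and 108 FPKM in PGAM5 KD libraries. It fell by 0.55 (SE 0.03, limma adjusted p = 4.67e-05). Apc, another scaffold of the complex, fell by 0.39 (SE 0.08, limma adjusted p = 0.0118). Axin2, which is itself a target gene of beta-catenin, was listed at 0 in all 6 libraries.

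Other described partners were examined as well. Of 14 tested, 3 rose, 3 fell and 8 did not pass, which is 42.9% called beside 31.7% of all genes (16.8% higher and 14.9% lower), with a median log2 fold change of -0.05. Dnm1l, which encodes DRP1, was at 26.7, 26.9 and 29.1 FPKM in control and 24.0, 19.8 and 19.4 FPKM in PGAM5 KD libraries. It fell by 0.38 (SE 0.08, 95% interval -0.57 to -0.18, limma adjusted p = 0.0142) without overlap. Without control replicate 3 the Dnm1l value was -0.337 (limma adjusted p = 0.0502), at the edge of the threshold.

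Partners in the antioxidant response and in metabolism did not all move one way. Keap1, which binds PGAM5 and targets the transcription factor NRF2 for degradation, was at 12.3 ± 0.51 and 12.6 ± 0.733 FPKM (SD, n = 3 each), a log2 fold change of 0.03 (limma adjusted p = 0.712). Its sign was negative on scaling to TPM and without PGAM5 KD replicate 3 (-0.012). Nfe2l2, which encodes NRF2, was at 39.1, 40.6 and 39.6 FPKM in control and 27.3, 26.6 and 26.0 FPKM in PGAM5 KD libraries. It fell by 0.56 (SE 0.04, limma adjusted p = 9.44e-05). Me1, a cytosolic malic enzyme described as a PGAM5 substrate, rose by 0.51 (SE 0.04, limma adjusted p = 0.00017).

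Mlkl, the executioner of necroptosis, was at 6.79, 6.78 and 6.94 FPKM in control and 13.6, 12.1 and 12.6 FPKM in PGAM5 KD libraries, and it rose by 0.81 (SE 0.06, limma adjusted p = 0.000108). Ripk1, a kinase upstream in that pathway, did not pass (-0.04, limma adjusted p = 0.626). Ripk3, the kinase that phosphorylates MLKL, rose by 0.35 (SE 0.10, limma adjusted p = 0.0363). The Ripk3 call was lost in the limma fit without control replicate 2 (adjusted p = 0.07) or 3 (0.0596), or PGAM5 KD replicate 1 (0.0955), 2 (0.0856) or 3 (0.0591). It was also lost on scaling to TPM (limma adjusted p = 0.0768), under quantile normalization (0.0515), with no mean-variance trend (0.0528) and with no filter on low values (0.0937). Xiap, the caspase inhibitor that fell by 0.13 (limma adjusted p = 0.0409), is named after its value was seen. On scaling to TPM the Xiap value was -0.212 (limma adjusted p = 0.00796). Leaving out any 1 of the 6 libraries ended the Xiap call (limma adjusted p from 0.0624 without control replicate 3 to 0.113 without control replicate 2), as did fitting no mean-variance trend (0.0594).

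**Figure D4:**
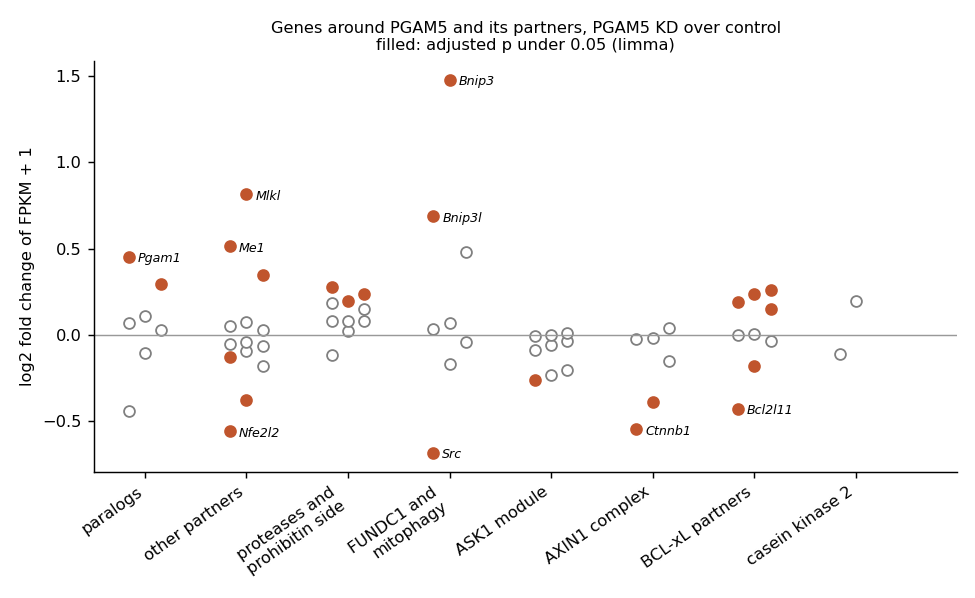
Log2 fold change of FPKM + 1 (y axis, PGAM5 KD over control) for the tested genes of 8 lists around PGAM5 and its partners (x axis); filled points have a limma adjusted p under 0.05. Bnip3 is highest at 1.48 and Src lowest at -0.68.

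Over the 8 lists together, 72 genes apart from the 9 were listed and 65 were tested. Of these 14 rose and 9 fell, which is 35.4% beside the 31.7% of all genes, and the median log2 fold change was 0.00. On scaling to TPM 8 rose and 17 fell, and over all genes the share of calls that were higher was 32.3% in place of 52.9%.

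The order of the 9 levels was almost the same in both groups. In control libraries it ran from Phb2 through Parl, Bcl2l1, Csnk2a1, Axin1, Pgam5, Fundc1 and Map3k5 to Pgam2, and only Axin1 and Pgam5 overlapped as neighbours. In PGAM5 KD libraries Bcl2l1 stood above Parl and Fundc1 above Pgam5, with Csnk2a1 and Axin1 as the only overlapping neighbours. The place of Csnk2a1 against Bcl2l1 and Axin1 rests on how fragments shared with Gm10031 were counted and is uncertain. The ratio of Pgam5 to Parl was 0.57, 0.421 and 0.465 in control and 0.153, 0.202 and 0.153 in PGAM5 KD libraries.

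The genes beside Pgam5 on the chromosome showed no call. These were Chfr (-0.07), Golga3 (-0.02) and Ankle2 (-0.01) on one side and Pole (-0.19), Fbrsl1 (-0.11) and Noc4l (-0.03) on the other, given as log2 fold changes. On scaling to TPM, still without a call, Chfr was at -0.152, Golga3 at -0.092, Ankle2 at -0.087 and Fbrsl1 at -0.205. Noc4l was at -0.108 on that scaling (limma adjusted p = 0.0564). The signs of Golga3 and Ankle2 turned on leaving out single libraries. Ankle2 ends 2479 bases from Pgam5. Pole had the lowest adjusted p of the 6 (limma adjusted p = 0.0688) and passed without PGAM5 KD replicate 1 (-0.239, limma adjusted p = 0.0327), on scaling to TPM (-0.278, 0.0288) and with voom on recovered fragments (-0.217, 0.0104). Pxmp2, which lies between Pgam5 and Pole, was below the level tested, at 0.367 ± 0.204 FPKM in control and 0.55 ± 0.28 FPKM in PGAM5 KD libraries (SD, n = 3 each). Within 1000 kb on either side, 22 other genes were tested. None rose and 2 fell (9.09%, beside 31.7% of all genes). These were Gm42595 at -0.64 and Ep400 at -0.42, both named after their values were seen. Leaving out any library but PGAM5 KD replicate 2 ended the Gm42595 call (limma adjusted p from 0.0502 without control replicate 1 to 0.0698 without control replicate 2), as did testing with no filter on low values (0.0589). Gm42595 was at -0.988 on scaling to TPM, -1.075 with a pseudocount of 0.1 and -1.209 with voom on recovered fragments. The median of the 22 genes was -0.12.

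**Figure D5:**
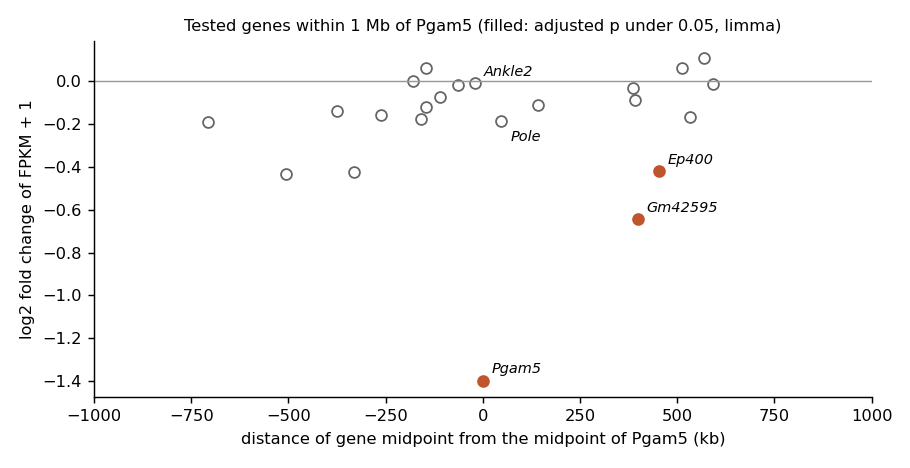
Log2 fold change of FPKM + 1 (y axis, PGAM5 KD over control) against the distance of each tested gene's midpoint from that of Pgam5 (x axis, kb); filled points have a limma adjusted p under 0.05. Pgam5 lies at -1.40, and the other 22 genes between -0.64 and 0.11.

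The genes with a library profile most like that of Pgam5 were Sema4d, Rab3il1, Gpnmb, Ahnak and Slc6a8. The likeness is the root mean square difference over the 6 libraries of log2(FPKM + 1), each gene centred on its own mean, and it was 0.168, 0.174, 0.18, 0.18 and 0.187 in that order. All 5 fell in PGAM5 KD libraries, as the measure requires. Sema4d, a membrane semaphorin, was at 38.3, 36.5 and 38.9 FPKM in control and 13.8, 13.4 and 14.3 FPKM in PGAM5 KD libraries. Gpnmb, a lysosome-associated glycoprotein of macrophages, was at 275 ± 3.46 FPKM in control and 109 ± 2.09 FPKM in PGAM5 KD libraries (SD, n = 3 each). Ahnak, a giant scaffold protein, was at 30.6 ± 1.12 and 13.0 ± 0.54 FPKM in the same order, and the creatine transporter gene Slc6a8 at 38.8 ± 1.96 and 17.0 ± 0.994 FPKM (SD, n = 3 each). Rab3il1, an exchange factor for Rab GTPases, was at 14.0 ± 0.341 and 5.89 ± 0.784 FPKM (SD, n = 3 each).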

How the data were processed

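RNA-seq of 3 control and 3 PGAM5 KD libraries was used. The authors deposited FPKM, 1 table per library, of 54532 Ensembl genes; the submitters' processing notes name HISAT2 2.0.5, featureCounts 1.5.0-p3 and mm10. Names, coordinates and exon lengths came from GENCODE M21 (54495 genes matched, 37 did not). FPKM times exon length gave whole fragments within 0.01 for 96.8% to 97.1% of values under 1000 fragments, hence depths of 18163463 to 24388917 fragments. Strand setting was not given in the sources used here.

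The values log2(FPKM + 1) of 10540 genes with a mean of at least 1 FPKM were tested with limma 3.58.1 in R 4.3.3 (trend, two-sided, Benjamini-Hochberg over all genes), with the study's thresholds (adjusted p under 0.05, log2 fold change beyond 1 either way). Single values had an exact two-sided permutation test (scipy 1.17.1). On simulated data 189 of 191 genes changed 2-fold were recovered among 10456, with 5.5% false calls. The simulation held only 2-fold changes and the same dispersion for every gene. It therefore gives no recovery or false-call rate for the smaller changes reported here. Similar sequences were sought with blastn 2.17.0. The 9 genes are taken by symbol, without measured values, but this choice and that of the lists were made with earlier results of these data known. Named genes were the 9, up to 3 called genes a list by size of change, 8 fixed relatives, the 3 nearest tested genes on either side of Pgam5, the 5 most similar profiles, and overlapping or similar genes. Mcl1, Bak1, Vdac1, Xiap, Pfkfb2, Gm42595, Ep400, Ripk1, Ubash3a and Pxmp2 were named outside this rule. Alternatives changed pseudocount, filter, scaling, trend, fragments (voom), replicate block and libraries left out. Replicates differed by more than sampling noise (chi-square per degree of freedom 5.04 to 8.88).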

Additional observations from a re-analysis of the deposited data

How the results depend on the processing

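Over 15 alternatives, 9 genes gave 133 fits, of which 126 kept direction and side of the threshold, 6 lost the call (all Phb2), 1 gained it (Pgam2) and 0 reversed. Pgam5 ranged from -1.589 to -1.281 and kept its call in all 15. The number of the 9 genes called was 2 or 3 in every setting. The 41 other genes put through the alternatives gave 609 fits, with 533 alike, 58 calls lost, 13 gained and 5 reversed signs, none of the reversed ones of a called gene. These were Keap1 on scaling to TPM (-0.044), Keap1 on leaving out single libraries (-0.012 to 0.062), Golga3 (-0.058 to 0.017) and Ankle2 (-0.037 to 0.014). All genes past both thresholds numbered 139, and 261 with a pseudocount of 0.1, 76 with a mean FPKM of at least 5, 233 on scaling to TPM and 277 with voom on recovered fragments. The filter tests fewer genes by construction; the cause of the other differences was not tested.

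Replicate numbers did not pair the libraries (same-number correlations of deviations -0.02, 0.016 and -0.052). With the replicate block 2652 genes passed in place of 3346, and 147 passed both thresholds. Of the 9 genes 3 were called, and Pgam5 kept its call. List genes called were 21 (13 higher and 8 lower) in place of 23 (14 higher and 9 lower). Bax (adjusted p = 0.0923 in limma), Bak1 (0.0504) and Xiap (0.0905) lost their calls, and a call was gained among list genes not followed singly. Depth limits Pgam2, with 20 to 37 fragments a library.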
